A study of Mus musculus with 4 samples.

Results

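The 10 genes described here encode the granule proteins and the calprotectin subunits of neutrophils and were followed on every array. They were chosen by gene name, through the RefSeq accession that each probe targets, and 11 probes for the 10 genes were found, out of 31577 probes and 25694 genes with ratios on at least 3 arrays. All 11 probes passed the filters. The genes were divided by the place of their product, with 4 genes of primary granules (Elane, Mpo, Prtn3 and Ctsg), 4 of secondary granules (Camp, Ngp, Ltf and Lcn2) and 2 of the cytosol (S100a8 and S100a9).

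RNA of dissected mouse ears was compared on 4 two-colour arrays of 1 slide, with RNA named DEP_ear, for diesel exhaust particles (DEP), labelled red (Cy5) and RNA named CON_ear, whose treatment is given as none, labelled green (Cy3). The study's methods describe male BALB/c mice aged 6 to 10 weeks with daily inhalation of DEPs over 5 days, 1 h at a time, and collection of the temporal bone area, middle ear included, on day 14. The labels call the arrays biological replicates, the number of animals behind each extract is not given, and no vehicle is named for the control. The p-values measure the spread between these 4 pairs of extracts. The piece of tissue was not sorted, so that fewer neutrophils and less RNA per neutrophil cannot be told apart. No dyes were swapped, and a preference of a transcript for 1 dye and an effect of exposure cannot be told apart.

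Neutrophils arise in bone marrow and fill their granules in a fixed order. Promyelocytes make the primary (azurophil) granules, with myeloperoxidase and the serine proteases, and myelocytes then make the secondary (specific) granules, with lactoferrin, cathelicidins and lipocalin 2. Transcripts of primary granule proteins are therefore typical of young precursors in marrow, whereas those of calprotectin (S100A8 and S100A9, which bind calcium and sequester zinc and manganese) stay abundant in mature neutrophils of blood and inflamed tissue. The transcription factor PU.1 acts in early myeloid cells on genes of primary granules, and C/EBP epsilon is required for secondary granules.

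The sequences upstream of 5 of the genes are shown because the primary granule genes and the others differed in which of these letters they carry. They are the 250 bases before the annotated start, from the RefSeq promoter table of GRCm38.p6, written 5′ to 3′ on the strand of the gene. Capitals mark GAGGAA, a core of PU.1 sites, and TTGCNNAA, a form of the C/EBP site, each searched on both strands, and the capitals of these motifs do not overlap in any of the 10 promoters.
Elane, chr10:79886062-79886311, plus strand: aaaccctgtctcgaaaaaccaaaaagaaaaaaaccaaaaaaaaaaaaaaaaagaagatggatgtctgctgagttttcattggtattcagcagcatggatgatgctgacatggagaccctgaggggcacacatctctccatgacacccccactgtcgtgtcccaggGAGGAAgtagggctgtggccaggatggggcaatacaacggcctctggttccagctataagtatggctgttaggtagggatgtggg
Prtn3, chr10:79879417-79879666, plus strand: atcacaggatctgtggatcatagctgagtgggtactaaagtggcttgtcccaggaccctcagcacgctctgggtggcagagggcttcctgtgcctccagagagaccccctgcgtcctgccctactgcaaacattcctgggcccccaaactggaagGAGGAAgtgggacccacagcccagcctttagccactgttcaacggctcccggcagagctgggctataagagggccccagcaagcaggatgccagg
Ngp, chr9:110419558-110419807, plus strand: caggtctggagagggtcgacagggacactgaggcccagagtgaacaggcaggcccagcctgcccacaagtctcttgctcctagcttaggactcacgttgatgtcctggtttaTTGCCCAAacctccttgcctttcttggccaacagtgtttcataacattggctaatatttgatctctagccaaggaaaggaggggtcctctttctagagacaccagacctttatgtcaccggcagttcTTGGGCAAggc
Ltf, chr9:111019042-111019291, plus strand: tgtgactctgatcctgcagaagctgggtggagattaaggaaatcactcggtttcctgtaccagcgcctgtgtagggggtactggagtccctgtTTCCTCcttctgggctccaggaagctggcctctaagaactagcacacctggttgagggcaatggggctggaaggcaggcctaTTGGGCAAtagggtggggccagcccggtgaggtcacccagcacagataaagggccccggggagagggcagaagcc
S100a8, chr3:90668821-90669070, plus strand: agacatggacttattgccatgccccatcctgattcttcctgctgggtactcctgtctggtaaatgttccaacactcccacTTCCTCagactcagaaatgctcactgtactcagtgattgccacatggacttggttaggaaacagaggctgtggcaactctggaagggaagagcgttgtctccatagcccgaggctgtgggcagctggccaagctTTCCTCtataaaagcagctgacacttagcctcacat
All 10 genes had an entry in the table. GAGGAA or its reverse complement lay upstream of 4 of 4 primary granule genes, 2 of 4 secondary granule genes and 1 of 2 cytosolic genes, against 23.3% of 32851 promoters of the same length. TTGCNNAA lay upstream of 0 of 4 primary granule genes, 3 of 4 secondary granule genes (Ngp, Ltf and Lcn2) and 1 of 2 cytosolic genes (S100a9), against 9.56% of promoters. Camp, whose sequence is not shown, carried neither motif. The matches are a description of letters and were not tested as sites.

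Ratios are given on the log2 scale as the DEP channel over the control channel, in the direction of the source names in the labels. That direction is the reverse of the one in which the study describes its up- and downregulated genes. For several of those genes the study also reports quantitative PCR, with changes in the direction it describes. Those measurements were made apart from the arrays and are opposite to the sign used here. The genes followed here were not among them. The sign used here rests on the labels alone, which list both treatments under Cy5. Were the dyes assigned the other way, every sign below would turn and the channels called DEP and control would change places. Each of the 11 probes was well above background in Cy5 and in Cy3 on every array, and none was saturated. By limma's moderated test of the 4 ratios against 0, two-sided, 0 of the 10 genes had an adjusted p under 0.05, over all probes. An unadjusted p under 0.05 was found for 0 as well. The unadjusted count was 5 after normexp background correction with median centring and 3 without array 1. It was 1 with the deposited ratios median centred, with only probes well above background, with an intensity trend or without array 2. Over all 25694 genes the adjusted threshold was passed by 0 genes (0%) and the unadjusted one by 18.7%. With normexp and median centring the adjusted threshold was passed by 2990 genes and by 1 of the 10, Elane, and 3 of the 10 were past 2-fold. With the deposited ratios a mean past 2-fold was found for 0 of the 10, against 6.78% of all genes (1742 of 25694). The mean ratios of the 10 lay between -0.65 (Ltf) and 0.34 (S100a9), with 5 above and 5 below 0 and a median of 0.05, beside a median of 0.03 over all genes tested. None of the 10 kept 1 sign on all 4 arrays, whereas 26.1% of 18337 genes with both signals well above background did. No difference of a mean ratio from 0 was detectable beyond the spread between arrays, and the ratios of single arrays are described next.

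On array 1 all 10 genes were lower in the DEP channel, as were 51.2% of well measured genes, by which those well above background in both dyes throughout are meant, although 3 of the 10 lay above 0 after normexp correction and median centring. On arrays 3 and 4 all but Ltf were higher, against 50.9% and 53.6% of well measured genes. Array 2 lay between, with 5 genes above 0, against 60.2%. Lower on array 1 and higher on arrays 3 and 4 were 9 of the 10 genes and 17.7% of well measured genes. The median ratio of the 10 was -0.90 on array 1, -0.03 on array 2, 0.61 on array 3 and 0.29 on array 4, beside medians over all well measured genes of -0.01, 0.08, 0.01 and 0.03. Array 1 had the widest spread over all well measured genes, with an SD of the ratios of 0.90 against 0.46 to 0.55 on the others. Across probes its correlation was 0.61 with array 2, 0.38 with array 3 and -0.22 with array 4. Arrays 3 and 4, where the 10 genes were mostly higher, had the fewest Cy3 spots well above background, 60.5% and 61.6% against 69.1% on array 1 and 67.9% on array 2, and the part of this in the ratios was not tested. Array 1 alone had 5 genes past 2-fold lower (7.05% of well measured genes) and array 3 alone had 2 past 2-fold higher (1.96%). With normexp and median centring these counts were 0 on array 1 (against 4.3% of well measured genes) and 8 on array 3 (against 6.53%). Array 1 gave the lowest ratio for all 10 genes, and array 3 the highest for 9, a combination found in 9.96% of 18330 well measured genes. With normexp and centring of each array on its median, all 10 genes were above 0 on arrays 3 and 4, where 80.9% and 79.6% of well measured genes were also above 0. The order of the arrays was the same after normexp with loess or with median centring, with array 1 lowest for 10 genes and array 3 highest for 9. The other alternatives gave the same counts, but they left the ratios of the 10 unchanged, rounded them or shifted each array by a constant.

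**Figure D1:**
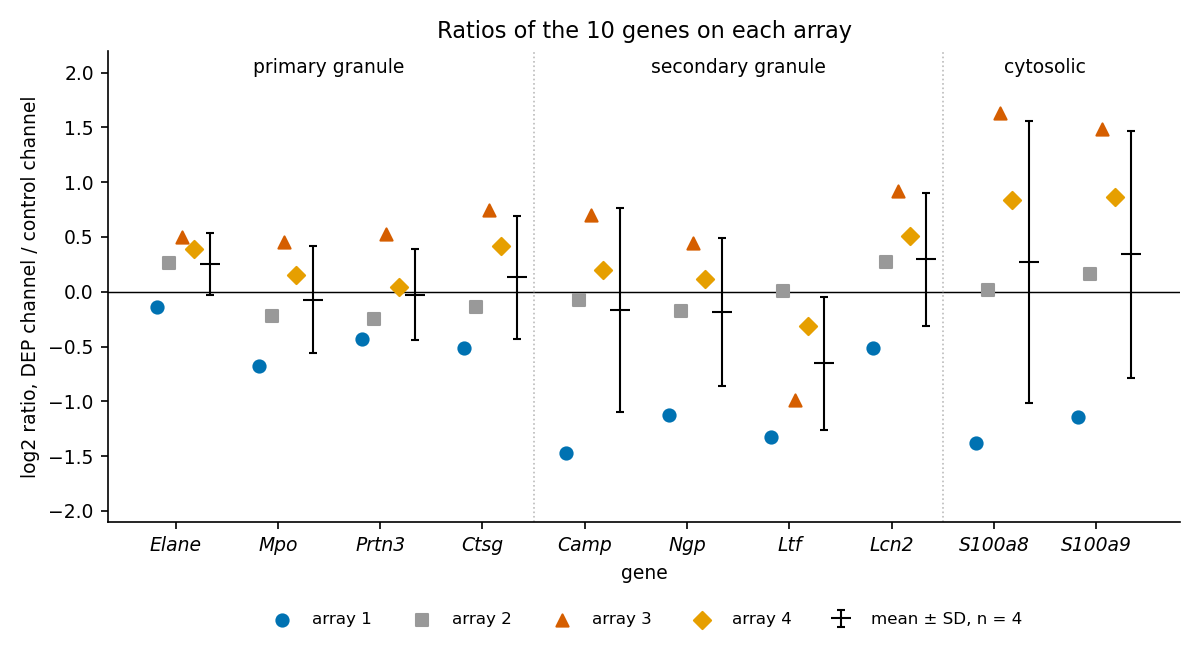
Log2 ratio of the DEP channel over the control channel (vertical axis) for the 10 genes (horizontal axis), with 1 symbol per array and the mean ± SD over 4 arrays as a bar. Array 1 is the lowest point of every gene, -1.47 for Camp, and array 3 the highest of every gene but Ltf; after normexp correction and median centring 3 genes lie above 0 on array 1.

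The primary granule genes had the smallest spread. Elane, neutrophil elastase, had ratios of -0.14, 0.26, 0.50 and 0.39 on arrays 1 to 4. Its processed signal was 10078, 13034, 7805 and 10509 in the DEP channel and 11097, 10887, 5504 and 8013 in the control channel. The mean ratio was 0.25 ± 0.28 (SD, n = 4 arrays) with an adjusted p = 0.396 in limma (standard error 0.15), and the gene was higher in the DEP channel on 3 of 4 arrays. With normexp and median centring the mean was 0.71 (adjusted p = 0.0426), higher on 4 of 4 arrays. With the deposited ratios Elane was the gene of the 10 that lay closest to no difference on array 1, and an SD as large as its own was found in 50.2% of well measured genes. With normexp and median centring it stood at 0.38 on array 1, where Ctsg (-0.034) lay closest.

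Mpo, myeloperoxidase, which makes hypochlorous acid from hydrogen peroxide, had ratios of -0.68, -0.22, 0.46 and 0.15, a mean of -0.07 ± 0.49 and an adjusted p = 0.869 in limma. Prtn3, proteinase 3, a serine protease related to elastase, had -0.43, -0.25, 0.53 and 0.04, with a mean of -0.03 ± 0.42 (adjusted p = 0.947). Ctsg, cathepsin G, the third serine protease of these granules, had -0.51, -0.14, 0.75 and 0.42, with a mean of 0.13 ± 0.56 (adjusted p = 0.784). These 3 genes were below 0 on arrays 1 and 2 and above 0 on arrays 3 and 4, and none was past 2-fold on any array with the deposited ratios. After normexp and median centring the mean of Ctsg was 0.59 (adjusted p = 0.152).

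Among the secondary granule genes, Camp, the cathelicidin antimicrobial peptide precursor, is measured by 2 probes. The brighter probe had ratios of -1.47, -0.07, 0.70 and 0.19, and the other -1.47, -0.07, 0.65 and 0.13. The probes differed by at most 0.061 on any array, far less than the arrays did. The signal of the brighter probe was 48973, 71947, 61959 and 70507 in the DEP channel, and 135950.0, 75701, 38083 and 61613.5 in the control channel, where array 1 was highest and array 3 lowest. Its mean ratio was -0.16 ± 0.93 (SD, n = 4 arrays; standard error 0.37), with an adjusted p = 0.832 in limma.

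Ngp, neutrophilic granule protein, a relative of the cathelicidins, had ratios of -1.13, -0.18, 0.45 and 0.11, with a mean of -0.18 ± 0.68 and an adjusted p = 0.737. Lcn2, lipocalin 2, which binds bacterial siderophores and is also made by epithelium, had -0.52, 0.27, 0.92 and 0.51, with a mean of 0.29 ± 0.60 and an adjusted p = 0.557. The mean of Lcn2 was 1.00 (adjusted p = 0.0506) after normexp and median centring. With the deposited ratios of all arrays, Lcn2 was the only secondary granule gene with a mean above 0 and the only one within 2-fold on array 1. With normexp and median centring the means of Camp (0.80), Ngp (0.42) and Ltf (0.25) were above 0 too. These genes then lay within 2-fold on array 1, at -0.37, -0.39 and -0.42.

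Ltf, lactoferrin, which binds iron and is secreted by glands as well as by neutrophils, had another pattern. Its ratios were -1.32, 0.01, -0.99 and -0.32, so that it lay below 0 on arrays 3 and 4, where the other 9 genes lay above. Its processed signal was 25948 in the DEP channel and 64911 in the control channel of array 1, 70116 and 69791 on array 2, 51363 and 101666 on array 3, and 81485 and 101452 on array 4. The mean ratio was -0.65 ± 0.61 (SD, n = 4 arrays; standard error 0.26), or 1.57-fold lower, with an unadjusted p = 0.0505 and an adjusted p = 0.27 in limma. Minus the ratio of Camp on the same array, the ratio of Ltf was 0.15, 0.08, -1.69 and -0.51. With normexp and median centring the mean of Ltf was 0.25, the opposite direction.

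The cytosolic pair differed most between arrays. S100a8 had ratios of -1.38, 0.01, 1.63 and 0.84 on arrays 1 to 4, from 2.61-fold lower to 3.1-fold higher in the DEP channel. S100a9 had -1.14, 0.16, 1.48 and 0.87. The 2 genes, whose products form a dimer, had like ratios on each array, which differed from each other by -0.24, -0.15, 0.15 and -0.03 on the 4 arrays, as S100a8 minus S100a9. Their means were 0.27 ± 1.29 (SD, n = 4 arrays; standard error 0.51, adjusted p = 0.787 in limma) and 0.34 ± 1.13 (standard error 0.45, adjusted p = 0.695). An SD as large as that of S100a8 was found in 3.97% of well measured genes, and one as large as that of S100a9 in 5.38%. Without array 3 the means were -0.18 and -0.039, on the other side of 0. They were 1.19 and 1.32 after normexp and median centring, past 2-fold, with adjusted p = 0.136 and 0.0896 in limma.

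In the signals themselves, most of the spread of this pair lay in the Cy3 channel, which is the control by the source names and would be the DEP channel if the dyes were assigned the other way. The processed signal of S100a8 was 65801, 86681, 94443 and 102455 in the DEP channel of arrays 1 to 4, and 171472, 85853, 30511 and 57349.5 in the control channel. That of S100a9 was 113960.0, 121037, 134064 and 155042 in the DEP channel, and 251813, 108314, 47983 and 85001 in the control channel. The Cy3 extract of array 1 was thus 5.62-fold higher than that of array 3 for S100a8 and 5.25-fold higher for S100a9, whereas the Cy5 extracts ranged over 1.56-fold and 1.36-fold. Over the 10 genes the SD of the log2 signal between arrays was larger in the control channel for 9, all but Ltf, with medians of 0.66 in the control channel and 0.25 in the DEP channel, against 0.37 and 0.33 over all well measured genes, of which 55.5% had the larger SD in the control channel. These signals are normalized within an array and not between arrays. When the average signal of each array was brought to the same distribution (Aquantile), the count was 6 of 10 against 59.9% of well measured genes, the medians were 0.50 and 0.39, and the range of the control extracts was 3.74-fold for S100a8 and 3.55-fold for S100a9, against 2.16-fold and 1.79-fold in the DEP extracts. The wider control range of the calprotectin pair was present on both scales, whereas the count over the 10 genes depended on the scale.

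**Figure D2:**
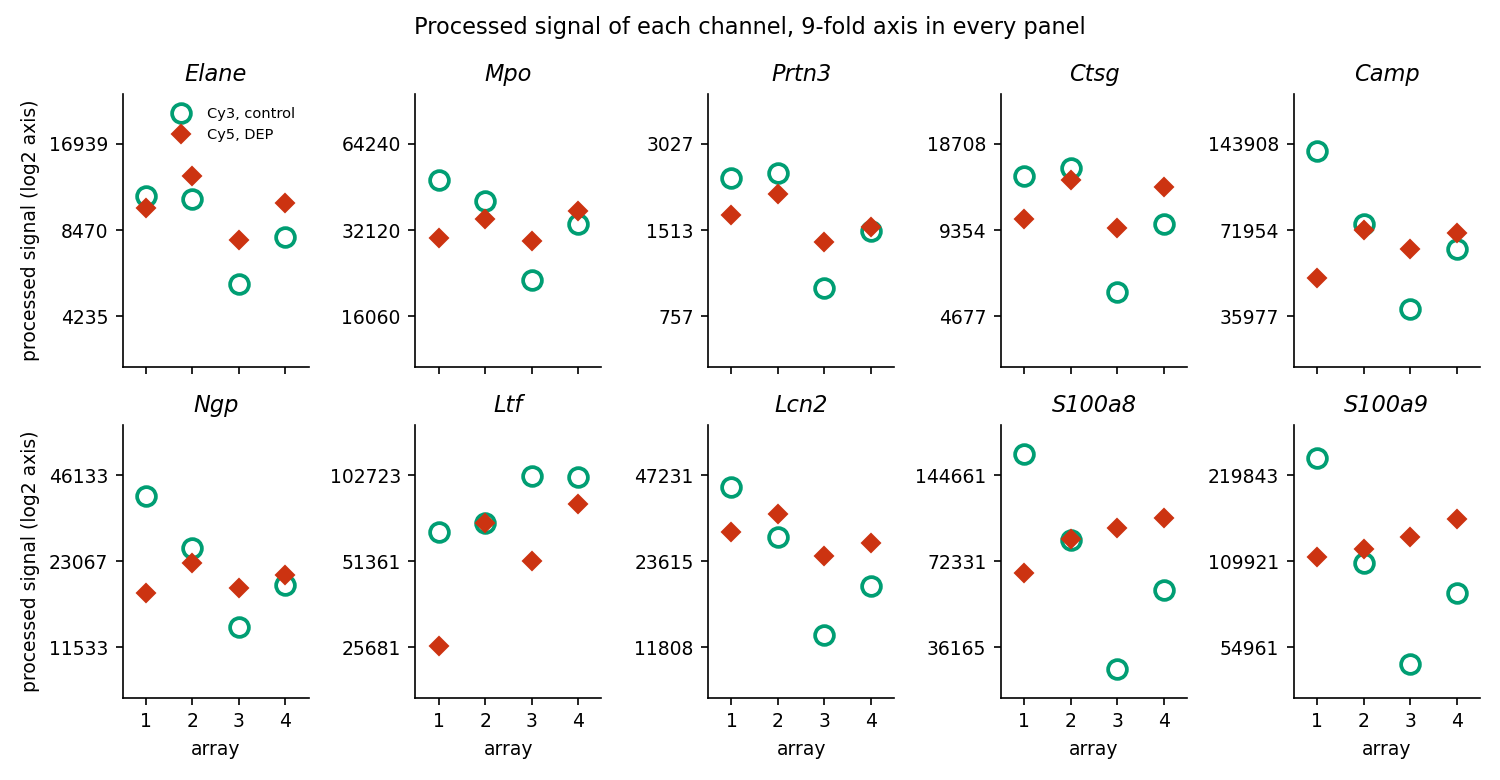
Dye-normalized processed signal of each gene (vertical log2 axis, 9-fold in each panel) on arrays 1 to 4 (horizontal axis), with open circles for the control channel and diamonds for the DEP channel; 1 point is 1 extract. The control extracts of S100a8 run from 171472 on array 1 to 30511 on array 3, while its DEP extracts stay between 65801 and 102455.

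Primary granule genes were then compared with the other 6. The mean ratio of the 4 primary granule genes was -0.44, -0.09, 0.56 and 0.25 on arrays 1 to 4, that of the 4 secondary granule genes -1.11, 0.01, 0.27 and 0.12, and that of the 2 cytosolic genes -1.26, 0.09, 1.56 and 0.85. Primary minus secondary and cytosolic, the difference was 0.72, -0.12, -0.14 and -0.12, with a mean of 0.09 ± 0.42 (SD, n = 4 arrays). It was above 0 on array 1 only, and without that array the mean was -0.13. With normexp correction the mean difference was -0.05 after loess and -0.29 after median centring, so that its sign depended on the processing. No p is given for these averages, because the genes were chosen with results of these arrays known. The groups also overlapped, as Lcn2 lay among the primary granule genes on array 1 and Camp did on array 3.

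The groups differed more plainly in how far apart the arrays lay. From array 1 to array 3 the ratio differed by between 0.64 (Elane) and 1.26 (Ctsg) for the primary granule genes, by 3.01 for S100a8 and 2.63 for S100a9, and by 2.18 for Camp, 1.58 for Ngp, 1.44 for Lcn2 and 0.34 for Ltf. Apart from Ltf, each secondary granule and cytosolic gene exceeded all 4 primary granule genes in this difference with the deposited ratios, whereas with normexp and median centring Lcn2 (1.37) lay below Ctsg (1.38). The mean difference was 1.00 for primary granule, 1.38 for secondary granule and 2.82 for cytosolic genes, beside a median of -0.01 over all well measured genes. With normexp and loess the means were 0.88, 1.26 and 2.75, and with normexp and median centring 1.06, 1.40 and 2.76, so that the order of the 3 groups was the same. Arrays 1 and 3 were singled out after the values were seen, and the comparison has 1 pair of extracts on each side.

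**Figure D3:**
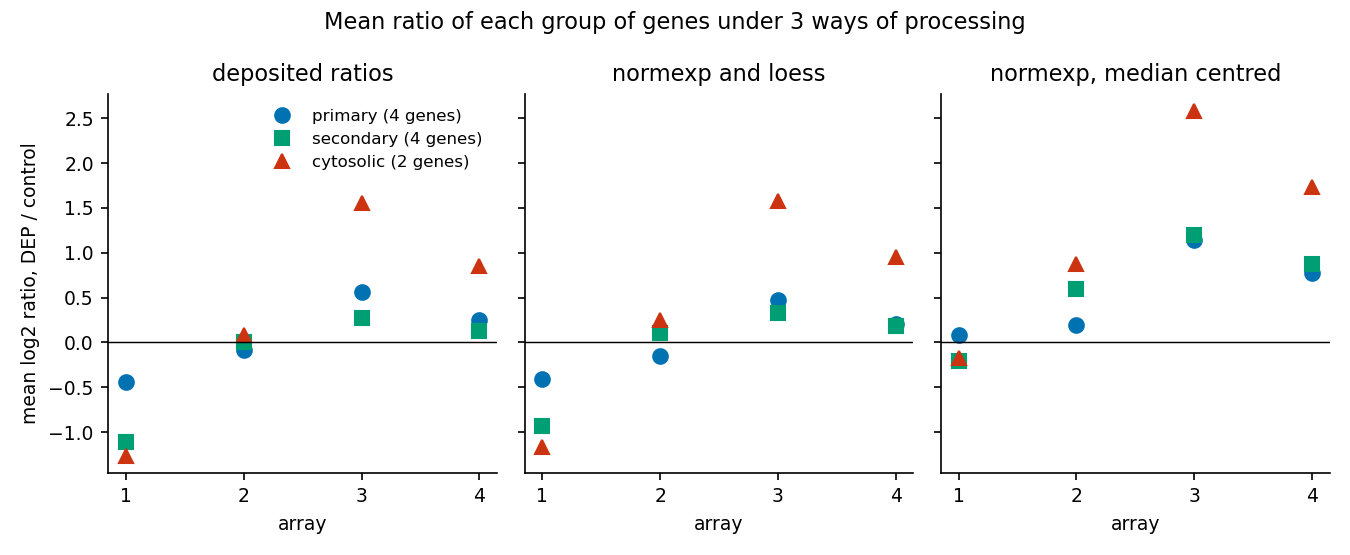
Mean log2 ratio of the DEP channel over the control channel (vertical axis) on arrays 1 to 4 (horizontal axis) for primary granule, secondary granule and cytosolic genes, from the deposited ratios and after 2 other ways of processing. The cytosolic genes span the widest range in each panel, from -1.26 to 1.56 with the deposited ratios; with normexp and median centring the means lie above 0 on arrays 2, 3 and 4, and that of the primary granule genes on array 1 too.

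Further genes of the neutrophil lineage were read from lists of known markers. Of 6 further genes of primary granules and promyelocytes, 0 passed the adjusted threshold in limma and all 6 had a mean ratio above 0, with a median of 0.19, where 13917 of all 25694 genes tested had a mean above 0 and the median was 0.03. The highest was Prss57, neutrophil serine protease 4, with 0.10, 0.16, 0.80 and 0.38 on arrays 1 to 4 (mean 0.36 ± 0.32, adjusted p = 0.303), and the lowest was Cd63, a membrane protein of the granules, with a mean of 0.02 ± 0.29. Of 9 further genes of secondary granules and myelocytes, 0 passed, with 5 above and 4 below 0 and a median of 0.10. Fcnb, ficolin B, had the highest mean (0.35 ± 0.63, adjusted p = 0.504).

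The lowest of that list was Lyz2, lysozyme, an enzyme of macrophages and epithelium as well as of neutrophils. Its ratios were -1.01, -0.003, -1.0 and -0.61, with a mean of -0.66 ± 0.48 (SD, n = 4 arrays), an unadjusted p = 0.0253 and an adjusted p = 0.22 in limma. Like Ltf, it lay below 0 on arrays 1, 3 and 4 and close to 0 on array 2. Pglyrp1, a peptidoglycan-binding protein of the granules, had -0.60, 0.34, -0.63 and -0.43. Pglyrp1 was named for its likeness to Ltf after its values were seen. Lyz2 also had the strongest signal of its list, as did Cd63 and Csf3r of theirs.

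Of 13 genes of mature neutrophils with ratios, 0 passed the adjusted threshold, 12 had a mean above 0 and the median was 0.42. Over the 12 well measured ones the medians were -0.39, 0.35, 0.98 and 0.50 on arrays 1 to 4. The highest mean was that of Il1r2, the decoy receptor for interleukin 1, with 1.95, 0.09, 0.60 and -0.13, a pattern unlike that of the granule genes. The lowest was Csf3r, the receptor for granulocyte colony-stimulating factor, with a mean of -0.16 ± 0.32. Of 7 transcription factors of granulocyte development, 0 passed. Their medians were -0.12, 0.34, 0.41 and 0.36 on arrays 1 to 4, and 5 of the 7 were higher on array 3 than on array 1. Cebpe, which encodes C/EBP epsilon, had the highest mean, 0.50 ± 0.81 (adjusted p = 0.452 in limma), from -0.60, 0.51, 1.34 and 0.74. Runx1, which acts in blood cell progenitors, had the lowest, -0.40 ± 0.62, from 0.42, -0.33, -1.05 and -0.62, lower on array 3 than on array 1. Cebpd, the one with the strongest signal, had 0.33 ± 0.37.

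Markers of other cells of marrow also had their lowest ratios on array 1 and their highest on array 3. The 7 erythroid genes with ratios, which include globins, had medians of -0.78, 0.27, 0.46 and 0.20 on arrays 1 to 4, and the 9 genes of B cell precursors had -0.62, 0.06, 0.52 and 0.39. All 7 and all 9 had a higher ratio on array 3 than on array 1, by a median of 1.44 and 1.21. Over all well measured genes the median of this difference was -0.01. The trait was not particular to marrow, as all 7 genes of neurons and glia (median 1.83) and all 5 of skeletal muscle (1.54) had it. The summed signal of the erythroid genes ran from 264967 to 325366 in the DEP channel and from 163951 to 445065 in the control channel. For genes of B cell precursors it ran from 24505 to 33715 and from 17590.3 to 39933. All genes of the erythroid and B cell precursor lists were well measured. In the erythroid list Hba-a1, an alpha globin and the one with the strongest signal, had the highest mean ratio (0.53 ± 0.71) and Slc4a1, the anion exchanger of red cells, the lowest (-0.38 ± 0.52). Rag1, a recombinase of lymphocyte precursors, had the highest of the B cell precursor list (0.74 ± 1.19), Pax5 the lowest (-0.42 ± 0.33) and Vpreb3, expressed in B cell precursors, the strongest signal (0.21 ± 0.57). After normexp and median centring the medians of the erythroid and B cell precursor lists on array 1 were -0.44 and -0.30. The part of these cells in the neutrophil ratios was not tested.

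Eosinophil genes also had their lowest ratios on array 1 and their highest on array 3. The medians of the 4 well measured genes were -0.56, 0.45, 1.43 and 1.14. Prg2, eosinophil major basic protein, had the strongest signal and the highest ratio of these, with -0.89, 0.42, 3.24 and 2.16 (mean 1.23 ± 1.83, adjusted p = 0.400 in limma), and Il5ra, a receptor subunit for interleukin 5, the lowest, with a mean of 0.27 ± 0.52. Epx, eosinophil peroxidase, had a signal of 1313 in the DEP channel of array 3 against 29.9 in the control channel, which was not well above background there but was on the other 3 arrays. The summed signal of the list lay between 14590.2 and 18995 in the DEP channel and between 1905 and 26621 in the control channel, lowest in the control extract of array 3, as for 9 of the 10 neutrophil genes. The part of this in the neutrophil ratios was not tested.

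Genes of skin and of nervous tissue also differed between arrays. The 6 keratinocyte genes, which mark a tissue that can itself make S100a8 and S100a9, had medians of 3.00, 0.33, 0.08 and -1.07, the reverse of calprotectin on arrays 1 and 4, and all 6 were higher on array 1 than on array 3. Their summed signal ran from 36516.5 to 333489 in the DEP channel and from 50658.5 to 62673 in the control channel. Lor, loricrin, had the strongest signal (mean ratio 0.81 ± 1.5), Ivl, involucrin, the highest mean (0.83 ± 2.00) and Krt5 the lowest (0.34 ± 1.40). The 7 genes of neurons and glia had -2.53, -0.88, -0.68 and 0.16, with a summed signal of 22886 to 29813 in the DEP channel and 23443 to 108227 in the control channel. Mbp, a myelin protein, had the highest mean (0.28 ± 0.14) and Syt1, of synaptic vesicles, the lowest (-2.69 ± 1.62). The part of skin and nervous tissue in the neutrophil ratios was not tested.

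In the remaining lists no gene passed the adjusted threshold in limma. Medians on arrays 1 to 4 were -0.33, 0.03, 0.33 and 0.60 over 8 genes of monocytes and macrophages, with Adgre1 highest by mean (0.53 ± 0.32), Ccr2 lowest (-0.20 ± 0.30) and Csf1r strongest in signal (0.20 ± 0.31). They were 0.40, 0.19, 0.00 and 0.91 over 5 mast cell genes, with Cma1 highest (0.53 ± 0.55), Kit lowest (-0.55 ± 0.69) and Mcpt4 strongest in signal (0.50 ± 0.39). For 4 T cell genes they were 0.04, 0.10, 0.38 and 0.12, with Cd3d highest (0.28 ± 0.68) and Cd3e lowest (-0.20 ± 0.32) and strongest in signal, and Cd8a, which marks cytotoxic T cells, was on 0 arrays called well above background for either dye (brightest probe). Osteoblast and osteocyte genes, 5 in number, had -0.14, 0.23, 0.15 and 0.63, with Dmp1 highest (0.61 ± 0.51) and Col1a1 lowest (-0.31 ± 0.87) and strongest in signal. Skeletal muscle genes, 5 in number, had -0.64, -0.54, 0.76 and 0.79, with Acta1 highest (0.33 ± 0.98) and Myh4 lowest (-0.21 ± 0.76) and strongest in signal. The 7 genes of mucociliary epithelium, the lining of the middle ear, had -0.23, 0.59, -0.26 and -0.58 and were well measured, with Epcam highest (0.47 ± 0.86), Muc5b, a gel-forming mucin, lowest (-1.41 ± 0.85) and Bpifa1 strongest in signal (0.20 ± 0.39). With normexp and median centring the median on array 1 lay above 0 for the lists of monocytes and macrophages (0.03), osteoblasts and osteocytes (0.13) and skeletal muscle (0.22). It also did for mast cells (0.38), T cells (0.21) and keratinocytes (3.43), which lay above 0 with the deposited ratios too. Among the lists of neutrophils it did for granulocyte transcription factors (0.22), the primary granule genes (0.04) and their further list (0.03).

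**Figure D4:**
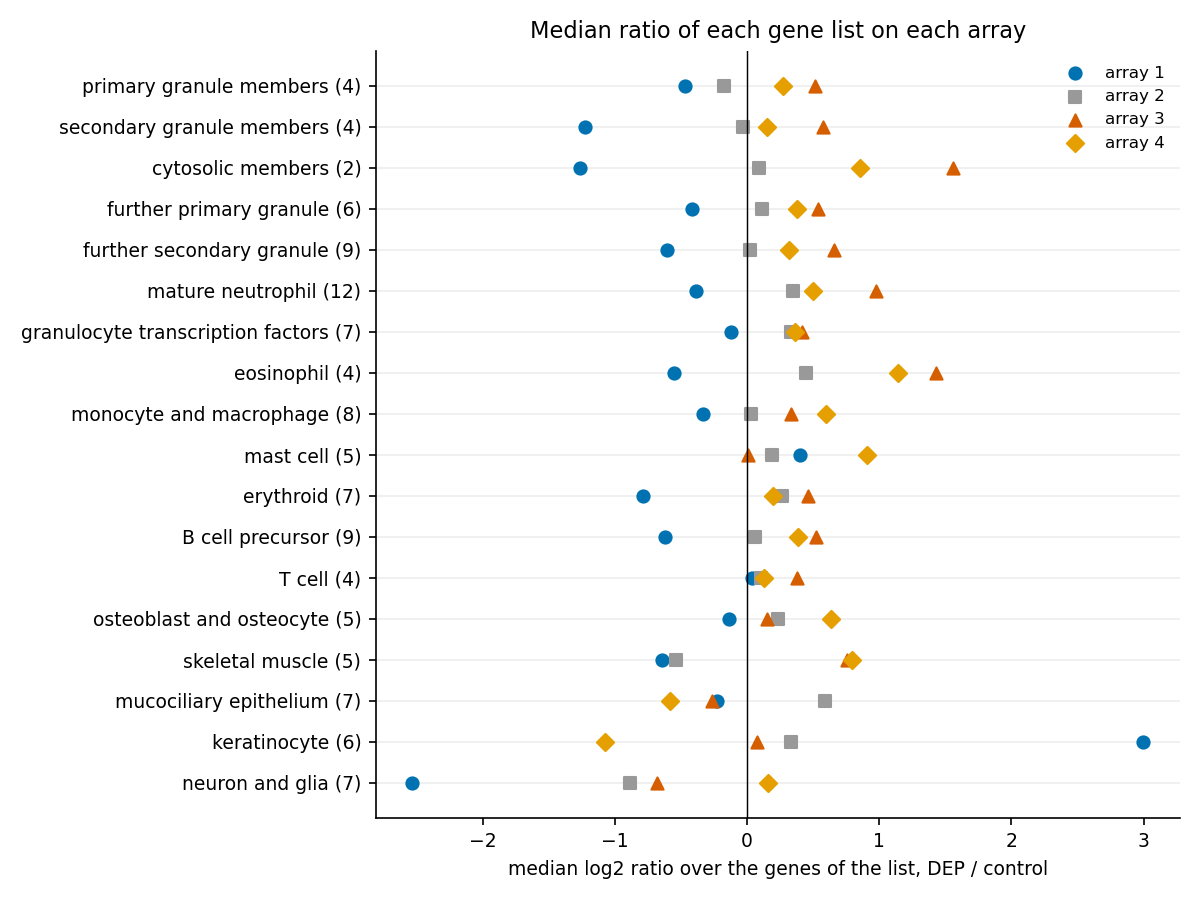
Median log2 ratio of the DEP channel over the control channel (horizontal axis) on each array for the 3 groups of neutrophil genes and the further lists (vertical axis, with the number of well measured genes). Every list is lowest on array 1 except those of mast cells, mucociliary epithelium and keratinocytes, the last of which stand at 3.00 there. With normexp and median centring the medians of the primary granule members and of their further list lie at 0.04 and 0.03 on array 1.

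The genes nearest to each group were found by the distance between their 4 ratios and the median of the group on each array, among 18320 genes outside the 10. For the primary granule genes these were H4c11, a histone, at a distance of 0.11, followed by Lcp1, an actin-bundling protein of leukocytes, Ptprcap, a partner of CD45, Ppp1r18 and Lrch4 at 0.17. The primary granule genes themselves lay at 0.24 to 0.56 from their own median. For the secondary granule and cytosolic genes the nearest were Slain1 at 0.28, Xk, a membrane protein of red cells, Chil3, a chitinase-like protein of myeloid cells, Zfp882 and Plac8 at 0.39, whereas Ltf lay at 1.92 from the median of its own group. The distances rest on 4 arrays and describe likeness of ratios only.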

How the data were processed

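Gene expression in mouse ears was measured on 4 Agilent Mouse V2 4x44K two-colour arrays, each with a DEP extract in Cy5 and a control extract in Cy3. Spots were quantified by the authors in Feature Extraction 10.10.1.1. Each deposited intensity is a spot signal, and the processed one had background and spatial trend subtracted and dyes normalized within its array. Deposited log10 ratios divide Cy5 by Cy3, with 0 where the software gave none. A table of the authors' log10 ratios holds the same values rounded. Columns of values left without a sample numbered 0, and the software's own p-values were not used.

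Log10 ratios were converted to log2. Control spots, spots flagged as outliers (164 to 274 per array) and spots without a ratio (6179 to 8558 of 43020) were left out, and spots of a probe were averaged. A probe needed 3 ratios. Probes were named through accessions with the RefSeq table of GRCm38.p6, used for names only, which matched 27655 of 39429. The array design was made on mm9, and no coordinate was converted. Where a gene had several probes, the brightest was taken. Between 66.6% and 70.0% of spots were well above background in Cy5 and between 60.5% and 69.1% in Cy3, and 0 were saturated. The number of arrays limits precision (the smallest p an exact sign-flip test could give with 4 is 0.125).

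An intercept was fitted with limma 3.58.1 under R 4.3.3 (lmFit and eBayes, prior degrees of freedom 1.98), and p-values were adjusted after Benjamini and Hochberg across every probe tested. The comparison of DEP over control was tested on simulated data (31577 probes), where calls were made for 28 of 100 probes shifted by 1 (log2) and for 58 of 100 shifted by 2, with 5 false calls. The study states no test. Well measured genes are those whose brightest probe was well above background in Cy5 and Cy3 throughout. The software also included matplotlib 3.10.9, numpy 2.4.6, pandas 2.3.3 and Python 3.11.15.

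The genes, the lists and the tests were chosen with earlier results of these data known. Named are the 10 genes with every probe, in each further list the genes with the highest and lowest mean ratio among well measured ones and the gene with the strongest signal, and the 5 genes nearest to each of 2 groups. For 1 list the gene with the strongest signal is not reported here. Olfm4, Ly6g, Cd68, Ahsp, Bglap and Flg were listed but not matched to a probe and were not analysed here. Alternatives were normexp (offset 50, on median spot signals) with loess or median centring, median centring of the deposited ratios, the deposited ratio table, a filter for well measured probes, outlier spots kept, an intensity trend, unmoderated variances, averaging the probes of a gene, and leaving out each array.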

Additional observations from a re-analysis of the deposited data

How the results depend on the processing

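The cause of the differences below was not tested. With normexp correction and median centring the median of all genes became 0.11, from 0.03 (log2), and 1 of the 10 genes had an adjusted p under 0.05 in limma, against 0 in the other settings: Elane, at 0.71 (adjusted p = 0.0426, the other settings giving 0.251 to 0.717). In that setting 3 were past 2-fold, 3 had the same sign on all arrays, the median of primary granule genes was 0.60 and that of secondary granule genes 0.61, and the means of Mpo (0.61), Prtn3 (0.27), Camp (0.80), Ngp (0.42) and Ltf (0.25) turned above 0. Genes called over all genes numbered 2990, of which 2785 were higher in the DEP channel by the source names (205 if the dyes were assigned the other way). With normexp and loess the mean of Camp was 0.012. With the deposited ratios centred on the median, 1 gene had the same sign on all arrays.

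Over all genes, 1742 were past 2-fold, 35.1% of them higher in the DEP channel by the source names (64.9% if the dyes were assigned the other way). Normexp gave 452 after loess (17.5% higher, or 82.5% turned) and 610 after median centring (63.4%, or 36.6%), and requiring both signals above background gave 582 (22.3%, or 77.7%). Leaving out 1 replicate gave between 1554 and 2732, the latter without replicate 4.

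With 1 array left out, between 0 and 4 of the 10 genes had the same sign on the arrays that remained, 4 of them without replicate 1 and 1 without replicate 2. The means ranged over replicates left out from -0.25 to 0.13 (Mpo), -0.21 to 0.11 (Prtn3), -0.075 to 0.34 (Ctsg), -0.45 to 0.27 (Camp), -0.40 to 0.13 (Ngp), 0.17 to 0.38 (Elane), -0.87 to -0.43 (Ltf), 0.086 (without replicate 3) to 0.57 (without replicate 1; Lcn2), -0.18 to 0.83 (S100a8) and -0.039 to 0.84 (S100a9). Those of Mpo, Prtn3, Camp and Ngp turned above 0 without replicate 1, that of Prtn3 also without replicate 2 (0.047), and those of Ctsg, S100a8 and S100a9 below 0 without replicate 3. The difference of primary minus the other genes ranged from -0.13 to 0.16, below 0 without replicate 1. Each ratio compares the 2 extracts of 1 array, so that the test against 0 is paired by array, and no fit without that pairing was made. The Aquantile scale, the counts on each array by normalization and the contrast of arrays 1 and 3 were chosen after seeing the data.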

Other observations

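Among 18320 well measured genes outside the 10, Lyz2 was the 13th nearest to Ltf by the distance between their 4 ratios (0.43). The nearest were 0610040J01Rik (0.29), a transcript known only by an accession (0.30) and Sox2 (0.33), a transcription factor of neural and sensory progenitors. Isg15, an interferon-induced ubiquitin-like protein, was the fifth (0.34). Ltf was chosen as the point of reference after its values were seen, and the distances are a description of 4 arrays.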
